A study of Homo sapiens with 12 samples.

Results

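Wnt ligands, their receptors and the genes of the pathway behind them are described here in 2 human cancer cell lines after knockdown of IGF2BP1, a protein that binds many mRNAs. The 52 members were picked by name and found by gene symbol among the 58174 genes listed in each deposited table. They are 17 Wnt ligands, 12 Frizzled and LRP receptors, 4 genes that set how long Frizzled stays at the membrane, 3 Dishevelled genes, 7 genes of the destruction complex including its substrate β-catenin, 5 nuclear factors and 4 antagonists. HepG2 cells, which come from a hepatoblastoma, and BE(2)-C cells, which come from a neuroblastoma, were transfected with siC, a control siRNA based on a worm microRNA, or with siI1, a pool of siRNAs against IGF2BP1. Poly-A RNA was sequenced 72 h later, with 3 libraries in each of the 4 groups (HepG2 siC, HepG2 siI1, BE(2)-C siC and BE(2)-C siI1), 12 in all, which the study's methods call biological replicates. BE(2)-C received the higher siRNA concentration, so the line and the concentration cannot be told apart.

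In the canonical Wnt pathway a secreted Wnt protein joins a Frizzled receptor to LRP5 or LRP6, Dishevelled is recruited, and a complex of AXIN, APC and the kinase GSK3 stops marking β-catenin for breakdown. β-catenin then enters the nucleus, binds TCF and LEF factors and turns on genes that include brakes on the pathway itself, such as AXIN2, RNF43, ZNRF3, NKD1, NOTUM and DKK1. HepG2 is known to carry a shortened, stabilised β-catenin, so part of its signal does not depend on a ligand.

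Levels are given as FPKM, a read count divided by gene length and library size, which allows genes of different length to be set side by side within a table. The library size behind these values differed slightly from the total of reads on genes. Each HepG2 library held 13398903 to 15176939 reads on genes and each BE(2)-C library 12852988 to 15721210. Changes are siI1 over siC on the scale log2(FPKM + 0.1), which understates the change of a gene at a low level, fitted with limma over every gene that reached 0.1 FPKM in 3 or more of a line's 6 libraries. A gene is called higher or lower where the adjusted p is below 0.05. With 3 libraries a side the smallest exact p is 0.1, so the calls rest on variances moderated over all genes. The tables were normalized separately, and levels were not tested between the lines.

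IGF2BP1 itself was measured at 48.5, 46.6 and 50.8 FPKM in the siC libraries and 12.6, 10.7 and 10.7 FPKM in the siI1 libraries of HepG2. The BE(2)-C values were 21.3, 20.6 and 21.6 FPKM in the siC libraries and 4.85, 4.75 and 4.87 FPKM in the siI1 libraries. In both lines every siI1 library lay far below every siC library, with a log2 fold change of -2.10 ± 0.08 (SE), adjusted p = 7.8e-06, in HepG2 and -2.11 ± 0.05 (SE), adjusted p = 1.5e-05, in BE(2)-C. The 10 hepatic markers were all tested in HepG2, where 6 were higher and 2 lower, and their summed level was 7870, 7840 and 7800 FPKM in siC and 12900, 14500 and 14700 FPKM in siI1, with ALB, which encodes serum albumin, the most abundant. The 10 neuroblastoma markers were all tested in BE(2)-C, where 5 were lower and 2 higher, with sums of 3790, 3540 and 3560 FPKM in siC and 3860, 3750 and 3820 FPKM in siI1 and MYCN the most abundant. Neuroblastoma markers summed to at most 0.269 FPKM in any HepG2 library, and hepatic markers to at most 0.434 FPKM in any BE(2)-C library. Of 5 fibroblast markers, DCN and LUM were higher in BE(2)-C, the list summed to 11.6, 10.9 and 11.7 FPKM in siC and 21.4, 22 and 20.4 FPKM in siI1, LUM was the most abundant, and the collagen genes COL1A1, COL1A2 and COL3A1 stayed at or below 1.09 FPKM on average. The part of these marker changes in the results on the members was not tested, and in such bulk samples fewer cells of a type and less RNA per cell cannot be told apart.

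HepG2 siI1 replicate 1 stood apart from the other libraries of its group. Over genes, its recovered reads differed from those of replicates 2 and 3 with a chi-square per degree of freedom of 13.8 and 14.3, against 1.98 between replicates 2 and 3 and 2.28 to 7.31 within the other groups. The HepG2 counts over the members and over the further lists of pathway and target genes are therefore given with and without it. So are the values of several members, while the marker counts above include it. HepG2 siI1 replicate 2 differed in another way: it held 77 reads of the fibroblast marker COL1A2 against 0 to 4 in the other HepG2 libraries, 115 reads of SFRP2, which encodes a secreted Wnt-binding protein, against 0, and a fibroblast marker sum of 1.5 FPKM against 0.263 to 0.42. Without that library 12 members were lower and 8 higher in HepG2, with 18.8% and 17.1% of all genes, and the calls of FZD2, FZD3 and APC were lost. The source of these reads was not tested.

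Of the 52 members, 39 passed the filter in HepG2, 37 in BE(2)-C, 43 in at least one line and 33 in both. In HepG2, 15 of the 39 were lower, 8 were higher and 16 were not called; among the 19436 genes tested 23.0% were lower and 21.9% higher, and among the 12823 protein-coding genes, the class to which all members belong, 30.5% and 25.3%. The median log2 fold change was -0.34 over the tested members and 0.01 over all tested genes. FZD2 and FZD8 in HepG2 passed the filter through their siC libraries alone and WNT2B, TCF7L1 and NKD1 in BE(2)-C through their siI1 libraries alone. The filter thus favoured a difference for these 5, of which only FZD2 was called. WNT6 in HepG2, a called member, also depended on its siI1 libraries, as only siC replicate 2 of its siC group reached 0.1 FPKM. The counts and medians describe the members that passed, not all 52. Without HepG2 siI1 replicate 1, 17 members were lower and 8 higher, with 25.6% and 23.5% of all genes, LGR4 and FZD8 being the added calls, and the members' median was -0.33. With libraries scaled to equal sums of FPKM, the median of all HepG2 genes moved to -0.15 and that of the members to -0.48, and 20 members were lower and 7 higher, with 30% and 16.5% of all genes. In BE(2)-C, 10 of the 37 were lower and 7 higher, against 14.8% and 13.3% of 18656 genes and 19.9% and 15.5% of the 12600 protein-coding genes, 20 were not called, and the medians were -0.12 over the members and 0.02 over all genes. The change differed between the lines for 17 of the 33 members tested in both, in a joint fit of the 12 libraries, where 40.2% of 15362 genes differed. Without HepG2 siI1 replicate 1 the count was 20, with 46.0% of genes. With the filter raised to 1 FPKM, which leaves out genes at low levels, 15 members differed, with 54.4% of genes. The siC and siI1 libraries did not overlap for 29 of the 39 members tested in HepG2 and 27 of the 37 in BE(2)-C, against 55.8% and 45% of all tested genes, so a gap between the groups was common among members that were not called. All 23 calls in HepG2 and 17 in BE(2)-C had such a gap and held in a voom fit of the recovered reads.

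**Figure D1:**
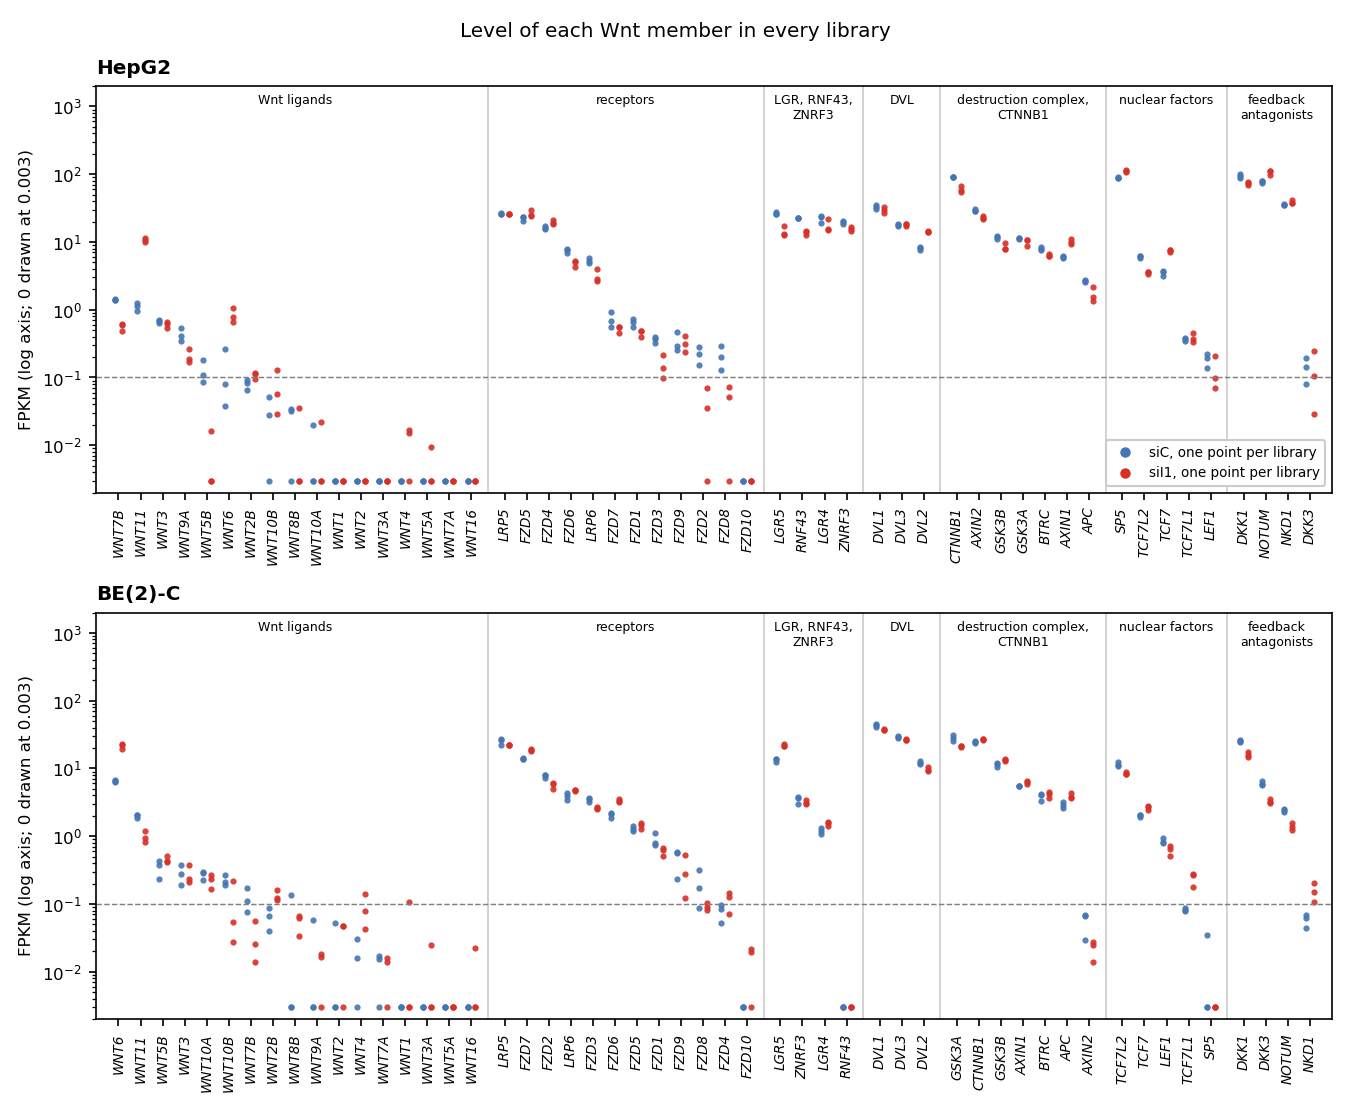
FPKM of each of the 52 members in each library, on a log axis with 0 drawn at 0.003, by role; blue points are siC libraries, red points siI1 libraries, and the dashed line marks 0.1 FPKM. Most Wnt ligands lie below the line in both cell lines, while the Dishevelled genes and most genes of the destruction complex lie well above it.

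Most Wnt ligands were at or near 0. In HepG2, 12 of the 17 did not pass the filter and in BE(2)-C 10 did not, and WNT1, WNT2, WNT3A, WNT4, WNT5A, WNT7A, WNT8B and WNT16 passed in neither line, together with the receptor gene FZD10. Over all roles, 6 members were listed at 0 in every HepG2 library and 2 in every BE(2)-C library. The summed ligand level was 4.05, 3.95 and 4.07 FPKM in HepG2 siC and 12, 13.5 and 14 FPKM in HepG2 siI1. The BE(2)-C sum was 10.1, 10 and 9.65 FPKM in siC and 25, 21.8 and 25.4 FPKM in siI1. The ligand sum was thus higher in every siI1 library of both lines, but a different ligand made up most of the rise in each.

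WNT11, which encodes a ligand best known for β-catenin-independent signalling in cell movement, lies at chr11:76186325-76210736 on the minus strand of GRCh38 (GENCODE v44). In HepG2 it was measured at 1.13, 0.947 and 1.27 FPKM in the siC libraries and 9.98, 10.7 and 11.6 FPKM in the siI1 libraries. All 3 siI1 libraries exceeded all 3 siC libraries several times over, with a log2 fold change of 3.17 ± 0.12 (SE), adjusted p = 8.8e-06, and 3.22 without replicate 1. It went the other way in BE(2)-C, with 2.06, 1.85 and 2.08 FPKM in the siC libraries and 1.21, 0.825 and 0.93 FPKM in the siI1 libraries. These groups did not overlap either, with a log2 fold change of -0.96 ± 0.16 (SE), adjusted p = 0.0056. The difference between the lines was 4.13 ± 0.20, adjusted p = 1.7e-07.

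WNT6, a ligand of the canonical pathway, lies at chr2:218859805-218874233 on the plus strand. In BE(2)-C, where it was the most abundant ligand, it was measured at 6.71, 6.6 and 6.21 FPKM in the siC libraries and 22.4, 19.6 and 22.9 FPKM in the siI1 libraries. Every siI1 library was far above every siC library, with a log2 fold change of 1.72 ± 0.07 (SE), adjusted p = 7.6e-05. In HepG2 its level was low, with 0.0378, 0.259 and 0.0796 FPKM in the siC libraries and 0.651, 1.05 and 0.791 FPKM in the siI1 libraries. The HepG2 groups did not overlap, on 9 reads over the siC libraries and 59 over the siI1 libraries, and the log2 fold change was 2.15 ± 0.41 (SE), adjusted p = 0.005. Of the HepG2 siC libraries only replicate 2 reached 0.1 FPKM, so WNT6 needed its siI1 libraries to pass the filter, which favours a rise. The difference between the lines was 0.43 ± 0.40, adjusted p = 0.43; it turned to -0.89 (adjusted p = 0.00036) with a pseudocount of 1 and to 0.82 (adjusted p = 0.019) without HepG2 siC replicate 2, so it was called in opposite directions.

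**Figure D2:**
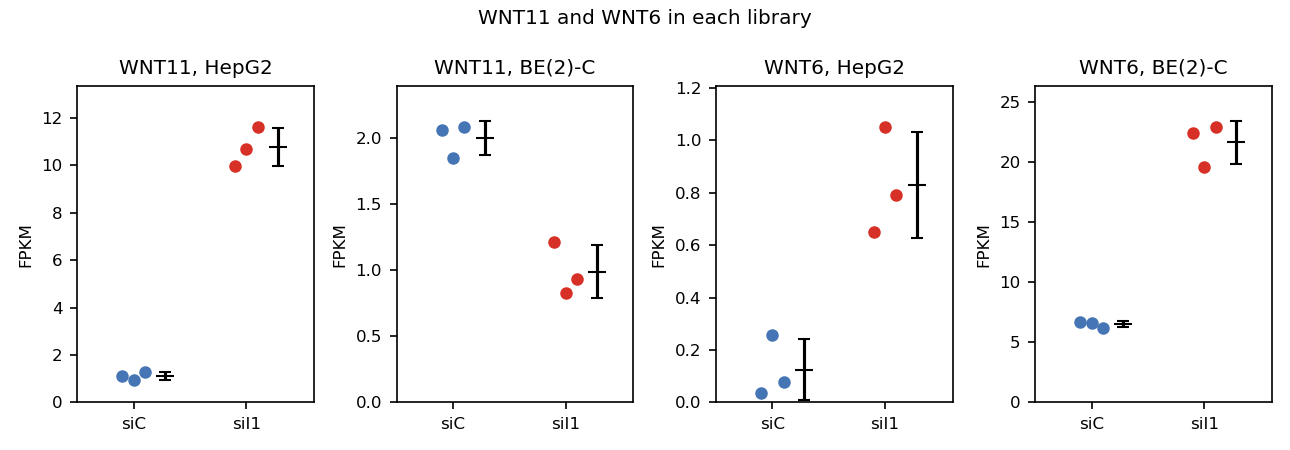
FPKM of WNT11 and WNT6 in each library (points), with the mean and SD of each group of 3 beside them, on axes that start at 0 and differ between panels. WNT11 is higher in the siI1 libraries of HepG2 and lower in those of BE(2)-C, and WNT6 is higher in the siI1 libraries of both.

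WNT7B, a canonical ligand, was the most abundant ligand of HepG2 siC and was measured there at 1.4, 1.41 and 1.45 FPKM in the siC libraries and 0.483, 0.598 and 0.607 FPKM in the siI1 libraries. Every siI1 library lay below every siC library, with a log2 fold change of -1.20 ± 0.16 (SE), adjusted p = 0.0012. It did not pass the filter in BE(2)-C, where no library held more than 12 reads. WNT3 had values of -0.13 and -0.04 on the log2 scale in HepG2 and BE(2)-C and was called in neither. WNT9A, tested in HepG2, had -0.79 ± 0.27 (SE), adjusted p = 0.052, and was below 0.05 in the voom fit and with equal sums of FPKM. WNT2B, WNT5B, WNT10A and WNT10B were tested in BE(2)-C only and not called, with adjusted p from 0.2 to 0.6.

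WNT6 and TCF7, which encodes a TCF factor described with the nuclear genes, were the 2 members called higher in both lines, so their promoters are shown. RefSeq promoter sequences, 250 bases before to 50 bases after a start site on GRCh38.p14, were at hand for 36 of the 52 members. None was at hand for WNT7B, WNT10B, WNT11, FZD2, FZD3, FZD6, FZD7, FZD10, LRP6, LGR5, ZNRF3, AXIN2, BTRC, NKD1, DKK3 or NOTUM. The promoters of these members were not searched. The sequences at hand were searched for CTTTGAA and CTTTGAT, 2 spellings of the TCF/LEF motif, and for TTCAAAG and ATCAAAG, which are the same letters on the other strand. Other spellings of the motif were not searched. A match was in 2 of the 44 promoters of the 36 members (4.55%), those of SP5 and DKK1, and in 6.86% of the 35116 promoters of all genes. Neither window below holds a match. The WNT6 window is chr2:218859555-218859854 and the TCF7 window, at one of its 2 listed start sites, is chr5:134115363-134115662, both on the plus strand.
WNT6: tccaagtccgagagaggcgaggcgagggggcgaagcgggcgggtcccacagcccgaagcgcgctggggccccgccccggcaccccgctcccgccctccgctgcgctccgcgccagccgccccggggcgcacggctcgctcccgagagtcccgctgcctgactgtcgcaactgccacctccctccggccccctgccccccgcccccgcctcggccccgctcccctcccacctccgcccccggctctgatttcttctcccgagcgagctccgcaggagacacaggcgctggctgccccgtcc
TCF7: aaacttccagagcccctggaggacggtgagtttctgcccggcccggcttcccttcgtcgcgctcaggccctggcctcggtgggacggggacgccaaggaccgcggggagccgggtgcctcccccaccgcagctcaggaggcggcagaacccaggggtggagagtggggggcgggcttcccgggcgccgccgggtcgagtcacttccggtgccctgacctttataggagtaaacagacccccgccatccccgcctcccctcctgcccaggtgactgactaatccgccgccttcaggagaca

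Among the receptors, LRP5 was the most abundant in the siC libraries of both lines, and the HepG2 values were 25.5, 25.6 and 26.6 FPKM in the siC libraries and 25.9, 26.2 and 25.8 FPKM in the siI1 libraries. LRP5 in BE(2)-C had 27, 22.2 and 26 FPKM in the siC libraries and 22.1, 22.2 and 21.8 FPKM in the siI1 libraries. The groups overlapped in both lines, with log2 fold changes of 0.00 (adjusted p = 0.95) and -0.18 (adjusted p = 0.13). LRP6, the other coreceptor of the canonical pathway, was measured in HepG2 at 5.74, 4.81 and 5.3 FPKM in the siC libraries and 3.95, 2.83 and 2.66 FPKM in the siI1 libraries. All siI1 libraries lay below all siC libraries, with replicate 1 nearest to the siC group, and the log2 fold change was -0.75 ± 0.16 (SE), adjusted p = 0.0084, or -0.92 without that library. LRP6 in BE(2)-C had 0.28 ± 0.10 (SE), adjusted p = 0.071, and the lines differed by -1.03 ± 0.20, adjusted p = 0.0016.

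FZD6, a Frizzled receptor known for planar cell polarity, moved in opposite directions. In HepG2 it had 7.73, 6.91 and 7.92 FPKM in the siC libraries and 5.31, 4.22 and 4.99 FPKM in the siI1 libraries, and in BE(2)-C 2.12, 1.86 and 2.2 FPKM in the siC libraries and 3.56, 3.32 and 3.24 FPKM in the siI1 libraries. The groups did not overlap in either line, with log2 fold changes of -0.63 ± 0.10 (SE), adjusted p = 0.0029, in HepG2 and 0.69 ± 0.10 (SE), adjusted p = 0.003, in BE(2)-C, and a difference of -1.32 ± 0.14, adjusted p = 3.6e-05. FZD7, the most abundant Frizzled of BE(2)-C, was measured there at 13.8, 13.8 and 14.3 FPKM in the siC libraries and 17.8, 19.5 and 18.4 FPKM in the siI1 libraries. Its siI1 libraries were all higher, at 0.41 ± 0.05 (SE), adjusted p = 0.0017, while in HepG2, at less than 1 FPKM, its groups overlapped and its change was -0.38 (adjusted p = 0.23). The difference between the lines for FZD7 was -0.79 ± 0.20, adjusted p = 0.0081.

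FZD2 and FZD3 were called lower in both lines, FZD2 in HepG2 on few reads. FZD2 was measured in BE(2)-C at 7.95, 8.05 and 7.11 FPKM in the siC libraries and 6.03, 4.96 and 5.86 FPKM in the siI1 libraries, and all siI1 libraries lay below the siC libraries, at -0.45 ± 0.09 (SE), adjusted p = 0.013. In HepG2 FZD2 passed the filter only through the siC libraries, which favours a fall, with 0.152, 0.278 and 0.225 FPKM in the siC libraries and 0.035, 0 and 0.0708 FPKM in the siI1 libraries. These values rest on 20 reads over the siC libraries and 3 over the siI1 libraries, a ratio of 0.154 with an exact 95% counting interval of 0.0293 to 0.519, and the fitted log2 fold change of -1.25 ± 0.36 (SE), adjusted p = 0.028, became -2.75 (adjusted p = 0.061) with a pseudocount of 0.01 and kept an adjusted p of 0.028 without the filter. The HepG2 call of FZD2 was also lost without siC replicate 2 or 3 or siI1 replicate 2. FZD3 had 3.22, 3.49 and 3.61 FPKM in the siC libraries and 2.59, 2.68 and 2.49 FPKM in the siI1 libraries of BE(2)-C, without overlap, at -0.40 ± 0.09 (SE), adjusted p = 0.014; without siI1 replicate 3 the adjusted p was 0.056. In HepG2 FZD3 had 0.318, 0.373 and 0.389 FPKM in the siC libraries and 0.215, 0.0996 and 0.136 FPKM in the siI1 libraries, again without overlap, at -0.90 ± 0.29 (SE), adjusted p = 0.039, a call that was lost without any one of the 3 siC libraries or without siI1 replicate 2 or 3. The difference between the lines was not below 0.05 for either gene, with adjusted p = 0.052 for FZD2 and 0.13 for FZD3.

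FZD5 and FZD4 were the most abundant Frizzled genes of HepG2. FZD4, which also serves the ligand Norrin in retinal vessels, had 16.9, 15.7 and 16 FPKM in the siC libraries and 21, 19 and 18.7 FPKM in the siI1 libraries, with no overlap and a log2 fold change of 0.27 ± 0.06 (SE), adjusted p = 0.013. With equal sums of FPKM that change was 0.10 (adjusted p = 0.41), against a median of -0.15 over all genes, and without HepG2 siC replicate 3 the adjusted p was 0.052. FZD5 had 0.23 ± 0.09 (SE), adjusted p = 0.073, in HepG2 and was not called, nor was it in BE(2)-C. FZD1, FZD8 and FZD9 were called in neither line, with values from -1.12 to -0.04 in HepG2 and from -0.54 to -0.48 in BE(2)-C.

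RNF43 and ZNRF3 encode membrane ubiquitin ligases that remove Frizzled from the cell surface, and LGR4 and LGR5 encode receptors for R-spondins, which hold these ligases back. In HepG2 LGR5 was measured at 28, 25.5 and 26.2 FPKM in the siC libraries and 17, 13.1 and 12.6 FPKM in the siI1 libraries. All siI1 libraries lay below all siC libraries, with replicate 1 the highest of them, at -0.90 ± 0.12 (SE), adjusted p = 0.00093, and -1.04 without replicate 1. LGR5 rose in BE(2)-C, with 12.6, 13.6 and 13.7 FPKM in the siC libraries and 21.5, 21.1 and 22.6 FPKM in the siI1 libraries. No libraries overlapped, the change was 0.71 ± 0.05 (SE), adjusted p = 0.00032, and the lines differed by -1.61 ± 0.14, adjusted p = 6.1e-06.

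RNF43 had 22.4, 22.4 and 22.7 FPKM in the siC libraries and 13.9, 12.8 and 14.3 FPKM in the siI1 libraries of HepG2. The siC libraries were within 0.3 FPKM of each other and the siI1 libraries were all lower, at -0.72 ± 0.06 (SE), adjusted p = 1e-04. RNF43 was listed at 0 in every BE(2)-C library. ZNRF3 was lower in HepG2, at -0.34 ± 0.07 (SE), adjusted p = 0.0094, and not called in BE(2)-C, at -0.14 ± 0.11 (SE), adjusted p = 0.41, and its difference between the lines was not below 0.05 (adjusted p = 0.26). LGR4 was not called in either line, at -0.36 in HepG2 and 0.34 in BE(2)-C, yet these changes differed, by -0.70 ± 0.21, adjusted p = 0.019; without HepG2 siI1 replicate 1 the HepG2 change was -0.53 (adjusted p = 0.011). The 4 genes together summed to 94.5, 84.8 and 93.1 FPKM in HepG2 siC and 69.1, 55.1 and 58.1 FPKM in HepG2 siI1, and to 17.6, 17.7 and 18.7 FPKM in BE(2)-C siC and 26, 26.1 and 27.2 FPKM in BE(2)-C siI1. The sum was lower in every HepG2 siI1 library and higher in every BE(2)-C siI1 library.

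The Dishevelled genes, whose proteins pass the signal from Frizzled to the destruction complex, differed in level, with DVL1 the most abundant of the 3 in both lines. DVL1 had 31.1, 35 and 32.5 FPKM in the siC libraries and 26.6, 30 and 32.6 FPKM in the siI1 libraries of HepG2, and 45.4, 41.3 and 44 FPKM in the siC libraries and 36.4, 37.7 and 36.5 FPKM in the siI1 libraries of BE(2)-C. The HepG2 groups overlapped, at -0.15 ± 0.09 (SE), adjusted p = 0.21, and the BE(2)-C groups did not, at -0.24 ± 0.05 (SE), adjusted p = 0.011. The difference between these changes was not below 0.05 (adjusted p = 0.51). DVL2 had 8.22, 8.43 and 7.59 FPKM in the siC libraries and 14.2, 14.4 and 13.8 FPKM in the siI1 libraries of HepG2, and 13, 11.8 and 12.1 FPKM in the siC libraries and 10.5, 9.53 and 9.3 FPKM in the siI1 libraries of BE(2)-C. It was higher in every siI1 library of HepG2, at 0.80 ± 0.06 (SE), adjusted p = 9.3e-05, and lower in every siI1 library of BE(2)-C, at -0.32 ± 0.07 (SE), adjusted p = 0.013, a difference of 1.13 ± 0.09, adjusted p = 4.1e-06. The BE(2)-C call of DVL2 was lost without siI1 replicate 2 or 3, at adjusted p = 0.05 and 0.051. DVL3 was called in neither line, at 0.02 in HepG2 and -0.12 in BE(2)-C.

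CTNNB1, which encodes β-catenin, was the most abundant gene of the destruction complex group in both lines when averaged over all libraries of a line. In HepG2 it had 91.9, 92 and 92 FPKM in the siC libraries and 66.4, 57.9 and 55.4 FPKM in the siI1 libraries. The siC libraries were within 0.1 FPKM of each other and each siI1 library was far lower, at -0.62 ± 0.07 (SE), adjusted p = 0.00062, and -0.70 without replicate 1. CTNNB1 in BE(2)-C had 23.5, 25.5 and 24.2 FPKM in the siC libraries and 27.2, 26.9 and 26.4 FPKM in the siI1 libraries. The BE(2)-C groups did not overlap, the change of 0.14 ± 0.05 (SE), adjusted p = 0.064, was not called, and the lines differed by -0.76 ± 0.09, adjusted p = 5.2e-05.

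AXIN1, the scaffold of the destruction complex, had 5.81, 6.25 and 6.07 FPKM in the siC libraries and 9.87, 9.48 and 11 FPKM in the siI1 libraries of HepG2. Every siI1 library was higher, at 0.73 ± 0.07 (SE), adjusted p = 0.00034. AXIN1 in BE(2)-C had 0.17 ± 0.06 (SE), adjusted p = 0.083, and the difference between the lines was 0.56 ± 0.09, adjusted p = 0.00074. AXIN2, its inducible counterpart, went the other way in HepG2, with 28.3, 28.9 and 30.3 FPKM in the siC libraries and 23.8, 22.7 and 21.7 FPKM in the siI1 libraries and a change of -0.36 ± 0.06 (SE), adjusted p = 0.0023. AXIN2 did not pass the filter in BE(2)-C, at no more than 5 reads in any library.

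APC, the tumor suppressor that holds β-catenin in the complex, had 2.76, 2.53 and 2.67 FPKM in the siC libraries and 2.19, 1.53 and 1.36 FPKM in the siI1 libraries of HepG2, and 2.63, 2.93 and 3.21 FPKM in the siC libraries and 3.66, 4.38 and 3.74 FPKM in the siI1 libraries of BE(2)-C. The groups were apart in both lines, lower in HepG2 at -0.64 ± 0.18 (SE), adjusted p = 0.025, and higher in BE(2)-C at 0.41 ± 0.11 (SE), adjusted p = 0.031, a difference of -1.06 ± 0.22, adjusted p = 0.0026. Both APC calls were lost when single libraries were left out: in HepG2 without any one siC library or without siI1 replicate 2 or 3, and in BE(2)-C without any one of siC replicates 1 and 2 or any one siI1 library. Without HepG2 siI1 replicate 1 the HepG2 change was -0.83 (adjusted p = 0.0019). GSK3B, a kinase that marks β-catenin for breakdown, had the same pattern, with -0.48 ± 0.10 (SE) in HepG2 (adjusted p = 0.0073), 0.23 ± 0.06 (SE) in BE(2)-C (adjusted p = 0.036) and a difference of -0.70 ± 0.12, adjusted p = 0.00083. Its BE(2)-C call was lost without siC replicate 1 or 2 and without any one siI1 library, at adjusted p from 0.063 to 0.12.

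GSK3A, the related kinase, had 31.2, 25.3 and 28.1 FPKM in the siC libraries and 20.9, 21.1 and 21.1 FPKM in the siI1 libraries of BE(2)-C, with no overlap, at -0.42 ± 0.07 (SE), adjusted p = 0.0072. In HepG2 GSK3A was not called, at -0.17 ± 0.09 (SE), adjusted p = 0.16, and the difference between the lines was not below 0.05 (adjusted p = 0.11). BTRC, which encodes the ubiquitin ligase subunit that recognises phosphorylated β-catenin, had 8.28, 7.48 and 7.94 FPKM in the siC libraries and 6.74, 6.21 and 6.23 FPKM in the siI1 libraries of HepG2. These groups did not overlap, at -0.30 ± 0.07 (SE), adjusted p = 0.013; without HepG2 siC replicate 1 the adjusted p was 0.054. The BTRC groups of BE(2)-C overlapped, at 0.11 ± 0.11 (SE), adjusted p = 0.5, and the difference between the lines was -0.41 ± 0.14, adjusted p = 0.03, a call lost without any one of 7 of the 12 libraries.

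**Figure D3:**
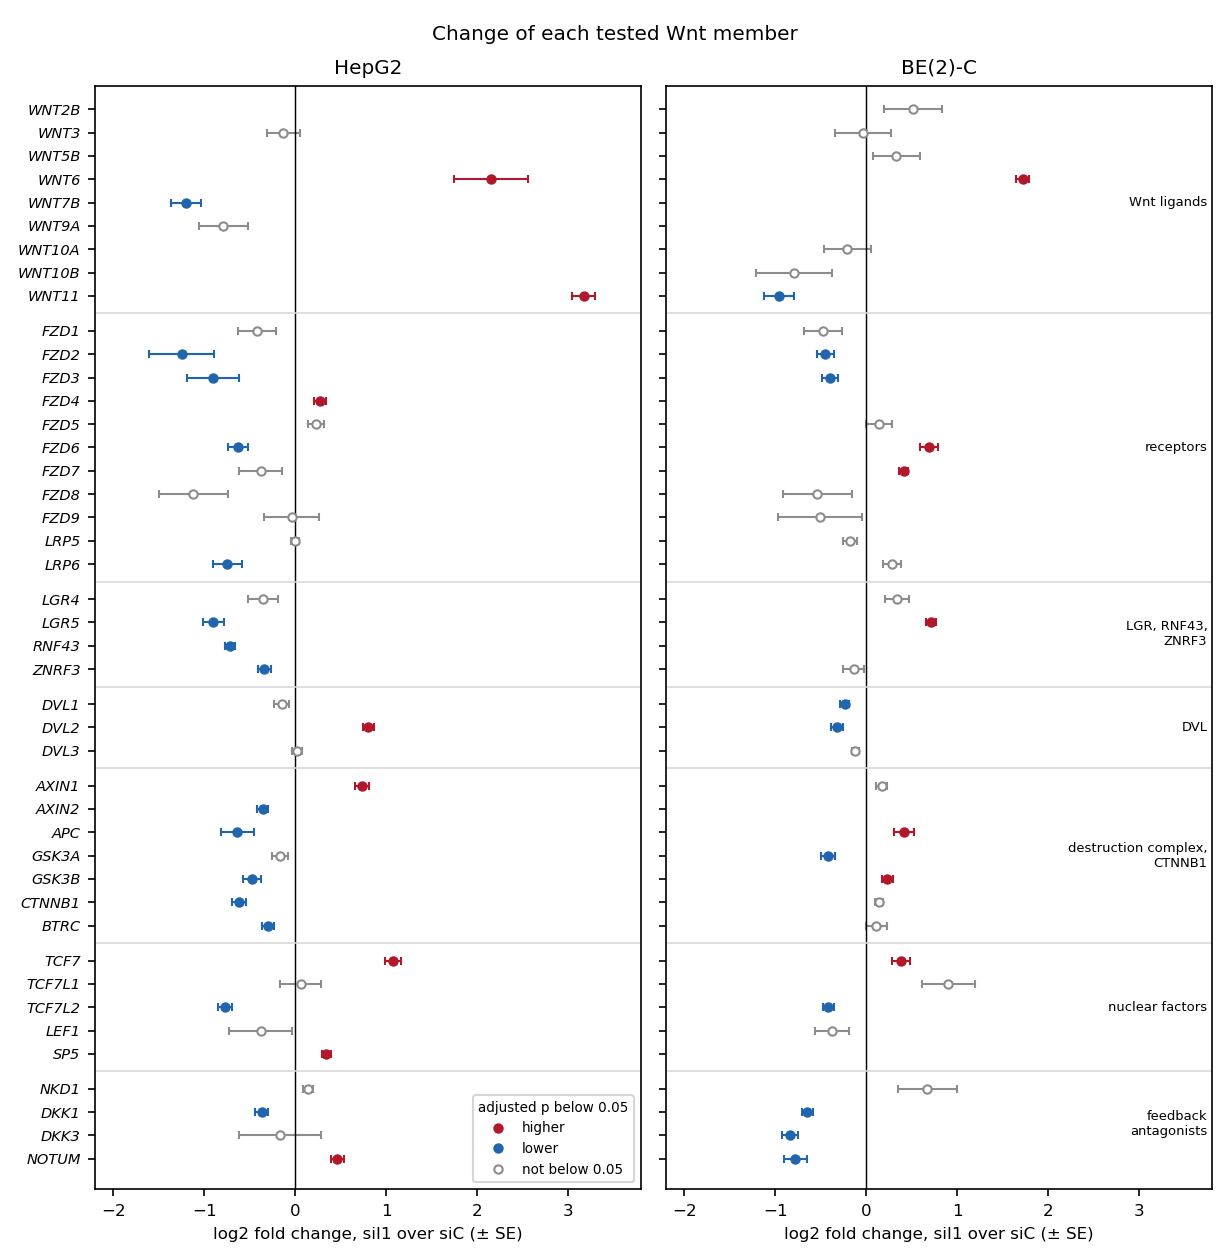
Log2 fold change of siI1 over siC, with its SE, for each of the 43 members tested in at least one line, by role; filled points have an adjusted p below 0.05 and open points do not, and a missing point means that the member did not pass the filter in that line. WNT11 and WNT6 show the highest values in HepG2 and WNT6 the highest in BE(2)-C, and several members lie on opposite sides of 0 in the lines.

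**Figure D4:**
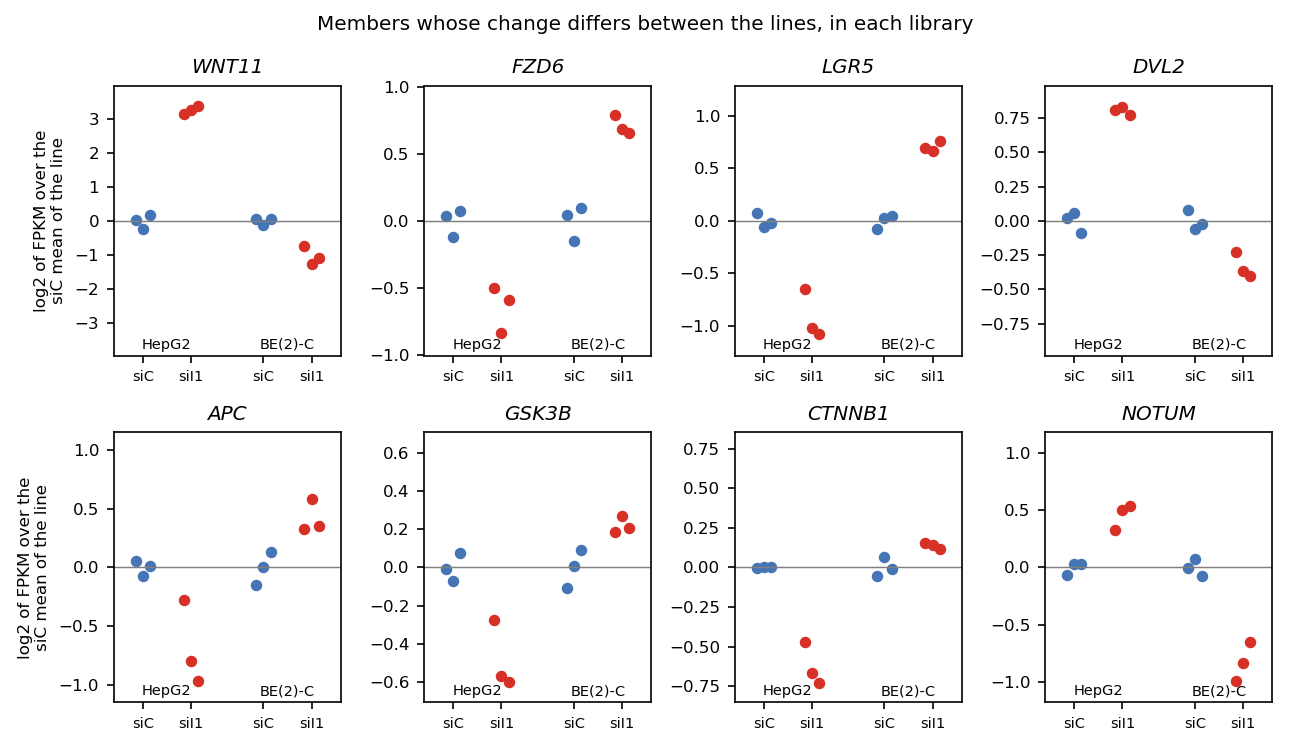
Log2 of FPKM over the siC mean of the same line, for each library of HepG2 and BE(2)-C (points; blue siC, red siI1), for 8 of the 17 members whose change differed between the lines; vertical scales differ between panels. In each panel the siI1 points of HepG2 and of BE(2)-C lie on opposite sides of 0, and for LGR5, APC, GSK3B and CTNNB1 replicate 1, the left point, is clearly the HepG2 siI1 library nearest to 0.

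Of the TCF and LEF factors that bind β-catenin on DNA, TCF7 was higher in both lines. In HepG2 TCF7 had 3.16, 3.7 and 3.65 FPKM in the siC libraries and 7.11, 7.67 and 7.55 FPKM in the siI1 libraries, and in BE(2)-C 2.08, 2.03 and 1.9 FPKM in the siC libraries and 2.68, 2.45 and 2.79 FPKM in the siI1 libraries. Neither pair of groups overlapped, at 1.07 ± 0.09 (SE), adjusted p = 0.00012, in HepG2 and 0.38 ± 0.10 (SE), adjusted p = 0.027, in BE(2)-C, and the rise was larger in HepG2 by 0.69 ± 0.12, adjusted p = 0.001. The BE(2)-C call was lost without siC replicate 2 or 3 and without siI1 replicate 1 or 3, at adjusted p from 0.059 to 0.1. TCF7L2, the most abundant TCF gene of both lines in siC, was lower in both. It had 5.75, 6.3 and 6.19 FPKM in the siC libraries and 3.62, 3.41 and 3.56 FPKM in the siI1 libraries of HepG2, and 11.1, 12.3 and 11 FPKM in the siC libraries and 8.4, 8.76 and 8.37 FPKM in the siI1 libraries of BE(2)-C. All siI1 libraries lay below all siC libraries of their line, at -0.77 ± 0.07 (SE), adjusted p = 0.00027, in HepG2 and -0.42 ± 0.06 (SE), adjusted p = 0.0032, in BE(2)-C, with a difference of -0.34 ± 0.09, adjusted p = 0.011. TCF7L1 and LEF1 were called in neither line; TCF7L1 in BE(2)-C had a change of 0.90 at 5 to 19 reads per library (adjusted p = 0.058), and was below 0.05 in the voom fit.

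SP5, a zinc finger repressor that β-catenin induces, was the most abundant nuclear member of HepG2, with 86.9, 90.8 and 88.3 FPKM in the siC libraries and 108, 113 and 116 FPKM in the siI1 libraries. The groups did not overlap, at 0.34 ± 0.05 (SE), adjusted p = 0.0019. It held at most 1 read in any BE(2)-C library. DKK1, a secreted protein that blocks LRP5 and LRP6, had 88.6, 102 and 93.3 FPKM in the siC libraries and 68.5, 75.2 and 75.7 FPKM in the siI1 libraries of HepG2, and 24.4, 25.9 and 25.4 FPKM in the siC libraries and 15, 17.4 and 15.8 FPKM in the siI1 libraries of BE(2)-C. It was lower in every siI1 library of both lines, at -0.37 ± 0.07 (SE), adjusted p = 0.0058, in HepG2 and -0.65 ± 0.06 (SE), adjusted p = 0.00069, in BE(2)-C. The difference between the lines was 0.28 ± 0.10, adjusted p = 0.041, and fell to 0.09 (adjusted p = 0.46) with equal sums of FPKM; it was also lost without any one of 8 of the 12 libraries.

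The promoters of SP5 and DKK1 are the 2 searched member windows with a match to the searched TCF/LEF letters. They are shown for that reason, with each match in capitals. The SP5 window, chr2:170715087-170715386 on the plus strand, has 3 matches, which start at positions -148, -109 and -84 from the start site. The DKK1 window, chr10:52314031-52314330 on the plus strand, has 1 match, which starts at -95. The matches describe the letters only, and in HepG2 the genes behind these windows moved in opposite directions.
SP5: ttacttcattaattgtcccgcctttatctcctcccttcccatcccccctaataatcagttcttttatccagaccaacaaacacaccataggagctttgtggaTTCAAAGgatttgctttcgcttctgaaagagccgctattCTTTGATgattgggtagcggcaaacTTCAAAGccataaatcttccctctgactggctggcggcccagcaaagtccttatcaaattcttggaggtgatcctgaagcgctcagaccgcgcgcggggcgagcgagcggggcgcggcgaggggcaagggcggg
DKK1: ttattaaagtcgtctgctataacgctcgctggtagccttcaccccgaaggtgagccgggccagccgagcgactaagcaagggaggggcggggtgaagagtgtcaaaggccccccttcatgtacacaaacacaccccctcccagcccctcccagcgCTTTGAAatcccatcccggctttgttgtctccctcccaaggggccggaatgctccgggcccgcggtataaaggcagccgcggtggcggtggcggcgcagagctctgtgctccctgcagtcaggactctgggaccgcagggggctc

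NOTUM, an enzyme that removes the lipid from Wnt proteins, had 74.4, 79.7 and 79.5 FPKM in the siC libraries and 97.7, 110 and 113 FPKM in the siI1 libraries of HepG2, and 2.42, 2.56 and 2.3 FPKM in the siC libraries and 1.22, 1.36 and 1.55 FPKM in the siI1 libraries of BE(2)-C. It was higher in every siI1 library of HepG2, at 0.46 ± 0.07 (SE), adjusted p = 0.0021, and lower in every siI1 library of BE(2)-C, at -0.78 ± 0.12 (SE), adjusted p = 0.0042, a difference of 1.23 ± 0.12, adjusted p = 1.5e-05. DKK3, a member of the Dickkopf family whose link to LRP is disputed, had 6.54, 5.63 and 5.8 FPKM in the siC libraries and 3.22, 3.1 and 3.56 FPKM in the siI1 libraries of BE(2)-C. The groups were apart, at -0.84 ± 0.09 (SE), adjusted p = 0.00095, while in HepG2, at under 0.25 FPKM, they overlapped and DKK3 was not called (-0.17, adjusted p = 0.79). NKD1, which binds Dishevelled and dampens the signal, was high in HepG2 siC at 34.6 to 36.1 FPKM and not called there, at 0.14 ± 0.06 (SE), adjusted p = 0.094, nor in BE(2)-C, at 0.67 ± 0.32 (SE), adjusted p = 0.18, on 11 to 51 reads per library, though the voom fit called it there (1.33, adjusted p = 0.0021). NKD1 passed the BE(2)-C filter only through the siI1 libraries, which favours a rise there. The difference between the lines for NKD1 was -0.53 ± 0.19, adjusted p = 0.042, but the adjusted p was 0.053 without the filter, and the difference was 0.01 with a pseudocount of 1 and was lost without any one of 9 of the 12 libraries.

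**Figure D5:**
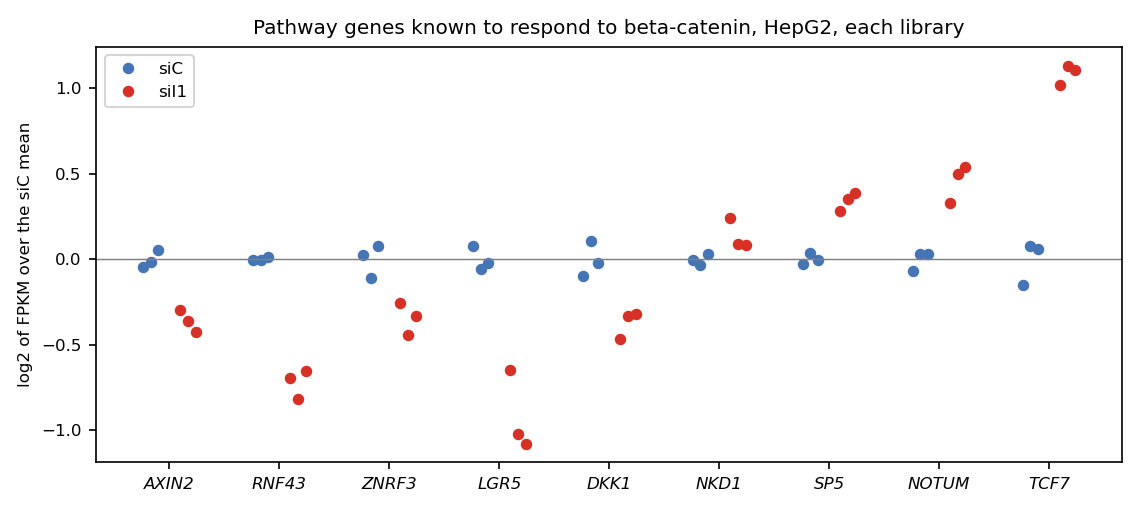
Log2 of FPKM over the siC mean in each HepG2 library (blue siC, red siI1) for 9 members known to respond to β-catenin in many tissues. AXIN2, RNF43, ZNRF3, LGR5 and DKK1 lie below 0 in all 3 siI1 libraries and SP5, NOTUM and TCF7 above 0, while NKD1 lies above 0 without being called.

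With equal sums of FPKM the HepG2 calls of AXIN2, RNF43, ZNRF3, LGR5, DKK1, SP5, NOTUM and TCF7 kept their direction, and NKD1 moved to -0.03. Of the 13 members called in both lines, 2 were higher in both (TCF7 and, subject to the filter in HepG2, WNT6), 4 were lower in both (FZD3, TCF7L2, DKK1 and, subject to the filter in HepG2, FZD2), 4 were lower in HepG2 and higher in BE(2)-C (FZD6, LGR5, APC and GSK3B) and 3 were higher in HepG2 and lower in BE(2)-C (WNT11, DVL2 and NOTUM). Of the 2574 genes called in both lines, 25.9% were higher in both, 39.4% lower in both, 15% lower in HepG2 and higher in BE(2)-C and 19.7% the reverse.

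A list of 69 other Wnt pathway genes was read beside the members. In HepG2, 40 of them were tested, 12 lower and 17 higher, and in BE(2)-C 48 were tested, 7 lower and 14 higher, with a median log2 fold change of 0.22 in HepG2 and 0.10 in BE(2)-C beside 0.01 and 0.02 over all genes. Those counts stand against 23.0% lower and 21.9% higher of all tested genes in HepG2 and 14.8% and 13.3% in BE(2)-C. Among protein-coding genes the shares were 30.5% lower and 25.3% higher in HepG2 and 19.9% and 15.5% in BE(2)-C. The HepG2 counts were 13 lower and 17 higher without siI1 replicate 1 and 13 lower and 13 higher with equal sums of FPKM, and the 7 lower in BE(2)-C ranged from 2 at adjusted p below 0.01 to 11 in the voom fit. DKK4, a secreted antagonist related to DKK1, fell furthest among the named genes of HepG2, with 11.5 ± 0.76 FPKM in siC and 0.976 ± 0.32 FPKM in siI1 (SD, n = 3), at -3.47 ± 0.20 (SE), adjusted p = 3e-05. The corepressor genes TLE1 and TLE3 moved apart in HepG2, at 1.43 ± 0.05 (SE), adjusted p = 4.5e-06, and -1.05 ± 0.12 (SE), adjusted p = 0.00048. FRAT1 and FRAT2, whose proteins bind GSK3, were higher in HepG2, at 2.03 (adjusted p = 1.8e-05) and 1.52 (adjusted p = 1.4e-05). CSNK1A1, the kinase that primes β-catenin for GSK3, was lower there, at -1.30 ± 0.14 (SE), adjusted p = 0.00036, as was BCL9, a β-catenin cofactor, at -0.89 (adjusted p = 0.0012), and SFRP4, a secreted Wnt-binding protein, was higher, at 2.06 (adjusted p = 4.9e-05). TLE1 and CSNK1G2 had the highest levels of the list in HepG2 when siC and siI1 were averaged, with 16.3 ± 0.48 FPKM in siC and 43.9 ± 0.5 FPKM in siI1 for TLE1 and 20.6 ± 1.6 FPKM in siC and 29.5 ± 0.64 FPKM in siI1 for CSNK1G2.

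Among the genes of that list called in BE(2)-C were PRICKLE1, a planar polarity gene, at 0.95 ± 0.05 (SE), adjusted p = 0.00014, CBY1, a β-catenin antagonist, at 0.73 (adjusted p = 0.00033), CXXC4 at 0.61 (adjusted p = 0.0018) and SOSTDC1 at 0.78 (adjusted p = 0.0027), all higher. TLE3 at -0.74 (adjusted p = 0.0018), KREMEN1, a receptor for Dickkopf proteins, at -0.70 (adjusted p = 0.0021), APC2 at -0.53 (adjusted p = 0.014) and BCL9 at -0.25 (adjusted p = 0.019) were lower. SFRP1 and CSNK1G2 had the highest levels, with 50.3 ± 1.2 FPKM in siC and 59.4 ± 1.2 FPKM in siI1 for SFRP1 and 37.9 ± 1.3 FPKM in siC and 45.2 ± 0.53 FPKM in siI1 for CSNK1G2.

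Of 40 genes known from the literature as β-catenin targets in various tissues, 23 were tested in HepG2, 6 lower and 10 higher, and 25 in BE(2)-C, 5 lower and 5 higher, with medians of 0.23 and 0.02. Of all tested genes, 23.0% were lower and 21.9% higher in HepG2 and 14.8% and 13.3% in BE(2)-C. With equal sums of FPKM the HepG2 target genes called higher fell from 10 to 6, and without HepG2 siI1 replicate 1 the counts were 6 lower and 10 higher. In HepG2 JAG1 (-1.55, adjusted p = 2.7e-05), MYC (-0.83, adjusted p = 7.7e-05), SOX9 (-0.77, adjusted p = 0.00012) and NRCAM (-1.04, adjusted p = 0.0036) were lower. RHBG (1.57, adjusted p = 1.6e-05), ID2 (0.83, adjusted p = 5.3e-05), MSX1 (1.06, adjusted p = 7.1e-05) and SLC1A2 (1.79, adjusted p = 9.5e-05) were higher. CCND1, which encodes cyclin D1, had the highest level of the list in both lines, at 123 ± 2.7 FPKM in siC and 145 ± 2.5 FPKM in siI1 of HepG2 with 0.23 (adjusted p = 0.0092), a call lost with equal sums of FPKM, and 235 ± 9.2 FPKM in siC and 231 ± 3.7 FPKM in siI1 of BE(2)-C with -0.03 (adjusted p = 0.69). In BE(2)-C BIRC5 (-0.64, adjusted p = 0.00022), SOX9 (-0.78, adjusted p = 0.0014), TBX3 (-0.30, adjusted p = 0.0044) and MSX1 (-0.99, adjusted p = 0.017) were lower, and NRCAM (0.42, adjusted p = 0.0029), TWIST1 (0.27, adjusted p = 0.0068), EPHB3 (0.58, adjusted p = 0.01) and FGF18 (1.89, adjusted p = 0.0074, at no more than 14 reads in any library) were higher. FGF18 in BE(2)-C passed the filter only through the siI1 libraries, which favours a rise, and without the filter its adjusted p was 0.012. CYP2E1, another of the 10 target genes called higher in HepG2, also passed only through siI1.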

How the data were processed

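Poly-A libraries of HepG2 and BE(2)-C cells were compared between siI1 and siC within each line. The authors trimmed reads with cutadapt 1.14, aligned them to hg38 with HISAT2 2.1.0 and counted them per Ensembl gene with featureCounts 1.5.3; whether counting used strand is not given in the sources used here. The deposited values are FPKM, a unit inferred from the values, since FPKM times gene length gave whole reads (tolerance 0.01) for 100% of the values above 0. Columns with the authors' own fold changes, p-values and FDR were not used.

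Values were tested as log2(FPKM + 0.1) with limma 3.58.1 (R 4.3.3 and its data.table package, version 1.17.8; trend, Benjamini-Hochberg over all tested genes), and the lines with an interaction term. The filter was 0.1 FPKM in at least 3 of 6 libraries. The code was tested on simulated data, where the limma fit made more false calls than the threshold aims at, mostly on genes with few reads, so adjusted p near 0.05 and the shares of all genes called are less strict than they read; reads and a voom fit are given for such members. Alternatives covered the pseudocount, filter, trend, scaling, replicate block, threshold, voom on recovered reads and leaving out each library.

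The members and gene lists were chosen with earlier results of these data known. Each member may be named whichever way it moved; values in every library are given for the called members with the largest changes, up to 10 a line, for the most abundant of each role and for others described beside them. From the other pathway and target lists, the 4 genes per line and direction with the smallest p among those called and the 2 with the highest FPKM are named. Positions are from GENCODE v44 (GRCh38) by Ensembl identifier and promoters from RefSeq (GRCh38.p14). Python 3.11.15, pandas 2.3.3, NumPy 2.4.6 and Matplotlib 3.10.9 were used.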

Additional observations from a re-analysis of the deposited data

Results flagged for a closer look

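The change differed between HepG2 and BE(2)-C for 17 members in the interaction test of the joint limma fit (adjusted p below 0.05). The values are the HepG2 log2 fold change minus that of BE(2)-C. The difference was positive for WNT11 at 4.13, NOTUM at 1.23, DVL2 at 1.13, TCF7 at 0.69, AXIN1 at 0.56 and DKK1 at 0.28. It was negative for LGR5 at -1.61, FZD6 at -1.32, APC at -1.06, LRP6 at -1.03, FZD7 at -0.79, CTNNB1 at -0.76, LGR4 at -0.70, GSK3B at -0.70, NKD1 at -0.53, BTRC at -0.41 and TCF7L2 at -0.34. TCF7, TCF7L2 and DKK1 were called in the same direction in both lines and differed in size. AXIN1 (0.73 in HepG2 and 0.17 in BE(2)-C) and NKD1 (0.14 and 0.67) also had positive values in both lines, without being called in both. NKD1 passed the BE(2)-C filter only through its siI1 libraries, which favours a difference, and was not called without the filter. Over all genes 40.2% differed in the same test, and 54.4% with the filter raised to 1 FPKM, where 15 members differed. The siRNA concentration also differed between the lines, and its part in these differences cannot be told apart from that of the line.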

How the results depend on the processing

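Calls of members were mostly kept: of 397 values of called members under alternatives other than leaving out a library, 374 kept direction and call and 23 lost the call, and of 240 values with a library left out, 208 kept both and 32 lost the call; none changed sign. The lost calls were those of FZD2, FZD3, FZD4, APC and BTRC in HepG2 and FZD2, FZD3, DVL1, DVL2, APC, GSK3B and TCF7 in BE(2)-C. Of the values of uncalled members, 26 kept their sign and gained a call under these alternatives, and 5 with a library left out. In HepG2 these belonged to WNT9A, FZD1, FZD5, FZD8, LGR4, DVL1, GSK3A and NKD1. In BE(2)-C they belonged to WNT2B, FZD1, LRP5, LRP6, CTNNB1, TCF7L1 and NKD1. LRP5 in HepG2 also gained a call, lower with equal sums of FPKM, at -0.16 (adjusted p = 0.049 in the limma fit).

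With adjusted p below 0.01, BE(2)-C had 6 members lower and 4 higher (7.91% and 6.11% of all genes), 2 other pathway genes lower and 9 higher, and 3 target genes lower. In the voom fit it had 12 members lower and 11 higher and 11 other pathway genes lower, with 17.8% of all genes lower and 17.2% higher, and HepG2 had 18 members lower and 9 higher, with 24.8% and 23.5%. With equal sums of FPKM, HepG2 had 6 target genes higher. With 1 library left out, the BE(2)-C counts ranged over 4 to 7 for members higher and 3 to 5 for target genes lower. For other pathway genes they ranged over 3 to 6 lower and 9 to 15 higher. In these fits 10.2% to 12.4% of all genes were lower and 8.14% to 11.3% higher. Fewer libraries leave fewer degrees of freedom. MSX1 and BCL9 in BE(2)-C lost their calls without single libraries.

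Signs changed only for values not called under the main settings and for the NKD1 difference between the lines. Of these, LRP5 in HepG2 with equal sums of FPKM and the WNT6 difference with a pseudocount of 1 were called after the change. With equal sums of FPKM, in HepG2, LRP5 was -0.16, DVL3 -0.15, TCF7L1 -0.08 and NKD1 -0.03, beside the shift of the median of all genes to -0.15. With a pseudocount of 1 the difference between the lines was -0.89 for WNT6 and 0.01 for NKD1; a larger pseudocount shrinks the change of the line with the lower level. With 1 library left out, the values ranged from -0.19 to 0.17 for FZD9 in HepG2, -0.01 to 0.02 for LRP5 in HepG2, -0.01 to 0.05 for DVL3 in HepG2, -0.53 to 0.18 for DKK3 in HepG2, -0.04 to 0.13 for TCF7L1 in HepG2 and -0.23 to 0.13 for WNT3 in BE(2)-C. The cause was not tested for the single libraries.

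After removal of group means, libraries sharing a replicate number correlated at 0.06, 0.04 and -0.01 in HepG2 and 0.02, -0.01 and 0.00 in BE(2)-C. No pairing by number was seen in these values, and whether such libraries shared a batch was not tested. A model with a replicate block gave other counts. In it, 14 members were lower and 9 higher in HepG2 (23.2% and 22.2% of all genes) and 10 lower and 6 higher in BE(2)-C (13.6% and 11.5%), and 17 differences between the lines were called. FZD2 and FZD3 in HepG2 (adjusted p = 0.06 and 0.081) and TCF7 in BE(2)-C (0.062) lost their calls in it, and LGR4 and FZD5 in HepG2 gained one.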
